A study of Mus musculus with 6 samples.

Results

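The 51 genes described here encode the enzymes of the urea cycle and of amino acid breakdown in liver. They were chosen by symbol from the 54232 genes of the deposited table, and each symbol named 1 row. Of the 51, 50 passed the low-count filter and were tested among 13304 genes. The exception was Prodh, which had 0 counts in every library. RNA was sequenced from livers of 6 mice, 3 Nogo-/- (knockout) and 3 WT (wild-type) littermates, all 8 weeks old and kept on normal chow, and the study's title gives insulin signalling as its question. Nogo is the product of Rtn4, a reticulon that shapes the endoplasmic reticulum. The labels name no promoter, Cre or deleted exon for the knockout. The libraries are called knockout 1, 2 and 4 and wild type 2, 4 and 11, after the numbers in their labels.

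Liver is the main site where nitrogen from amino acids is turned into urea. Amino groups are collected by transaminases on glutamate, freed as ammonia by glutamate dehydrogenase and glutaminase, and joined with bicarbonate to carbamoyl phosphate inside mitochondria, after which a cycle of enzymes shared between mitochondria and cytosol releases urea. The carbon skeletons follow separate routes to intermediates of the citric acid cycle, ketone bodies or glucose. Hepatocytes around the portal vein carry most of the urea cycle, and those next to the central vein carry glutamine synthetase. Branched-chain amino acids differ from the others in that their transamination takes place largely outside the liver, while the dehydrogenase that acts on the resulting ketoacids is abundant in it.

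The libraries held 17654412 to 18118811 counts in knockout and 17568223 to 20902369 counts in wild type. Rtn4 was at 4.63, 8.22 and 4.69 CPM (counts scaled to library size) in knockout 1, 2 and 4, against 40.5, 52.8 and 56.0 CPM in wild type 2, 4 and 11 (log2 fold change −3.08 ± 0.26 SE, edgeR adjusted p = 0.00101), so every library carried the Rtn4 level of its label. Mitochondrially encoded genes took 28.6%, 19.7% and 11.8% of the counts in knockout 1, 2 and 4, against 6.90%, 6.17% and 6.71% in wild type 2, 4 and 11, and on the first principal component knockout 4, at 8.55, lay nearest to the wild-type libraries (knockout 1 and 2 at 67.3 and 48.1, wild type at −49.8 to −32.2). Hepatocyte markers were present in all 6 libraries, with 1 of 9 tested markers higher in knockout, 0 lower, and a summed level of 89366 to 124497 CPM in knockout and 95139 to 116047 CPM in wild type. Markers of 3 blood cell types were higher in knockout. Of 10 T and NK cell markers 6 were tested and 4 rose (summed level 10.2 to 20.6 CPM in knockout and 4.13 to 5.29 CPM in wild type). Of 6 B cell markers, all tested, 4 rose (17.4 to 29.4 CPM in knockout and 8.41 to 11.8 CPM in wild type). Of 6 neutrophil markers 3 were tested and 3 rose (6.92 to 17.5 CPM in knockout and 2.61 to 3.72 CPM in wild type). The low-count filter removed the others, and a low marker can pass it through the group where it is higher. With no low-count filter 5 of 10 T and NK, 5 of 6 B cell and 4 of 6 neutrophil markers rose. Of 5 tested erythroid markers 1 rose and 1 fell. Of 8 endothelial markers 4 fell (125 to 199 CPM in knockout and 180 to 230 CPM in wild type). Of 8 Kupffer and 8 stellate cell markers 0 were called, and of 5 tested cholangiocyte markers 1 fell. Of 6 pancreatic acinar markers 0 were called. Their summed level varied within wild type, at 91.6, 24.1 and 21.9 CPM in wild type 2, 4 and 11, against 46.3 to 60.2 CPM in knockout. Of 10 periportal markers 1 fell (8864 to 13277 CPM in knockout and 9881 to 10658 CPM in wild type). Of 12 pericentral markers 2 rose, Axin2 (mean 6.71 CPM in knockout and 3.02 CPM in wild type) and Tbx3 (34.1 and 11.3 CPM). The summed pericentral level was lower in knockout, at 5718 to 9426 CPM, against 9525 to 10005 CPM in wild type. Its largest part was Cyp2e1, not called, with a mean of 3549 CPM in knockout and 6376 CPM in wild type. The periportal markers Sds, Gls2, Hal, Arg1 and Ass1 and the pericentral markers Glul and Oat are also members. Both lists therefore share genes with those described below. Over all tested genes 8.29% fell and 8.76% rose. None of the markers in the cell type lists was at 0 in all libraries. In a piece of liver, fewer cells of a type and less RNA per cell cannot be told apart. The part of the mitochondrial share and of these cell types in the results below was not tested beyond the fits named there.

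Most of the enzymes did not pass the test, and 9 did. The urea cycle gene Cps1, the tryptophan genes Tdo2 and Afmid, the branched-chain genes Bckdha, Bckdhb, Mccc1 and Mccc2, and the glycine gene Gldc fell. Bcat2, the mitochondrial branched-chain transaminase, rose. Thus 8 of the 50 tested members (16.0%) fell and 1 (2%) rose (edgeR, adjusted p under 0.05). Over all 13304 tested genes 8.29% fell, 8.76% rose and 17.0% were called in either direction. The members' median log2 fold change, knockout over wild type, was −0.13, against 0.01 over all tested genes. Knockout levels lay wholly below the wild-type levels in 16 members (32.0%) and wholly above in 5 (10%), against 19.2% and 19.7% of all tested genes (38.9% in either direction). Of the other tools, DESeq2 called 13 members lower, against 10.3% of all genes, and limma-voom 12, against 9.46%.

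**Figure D1:**
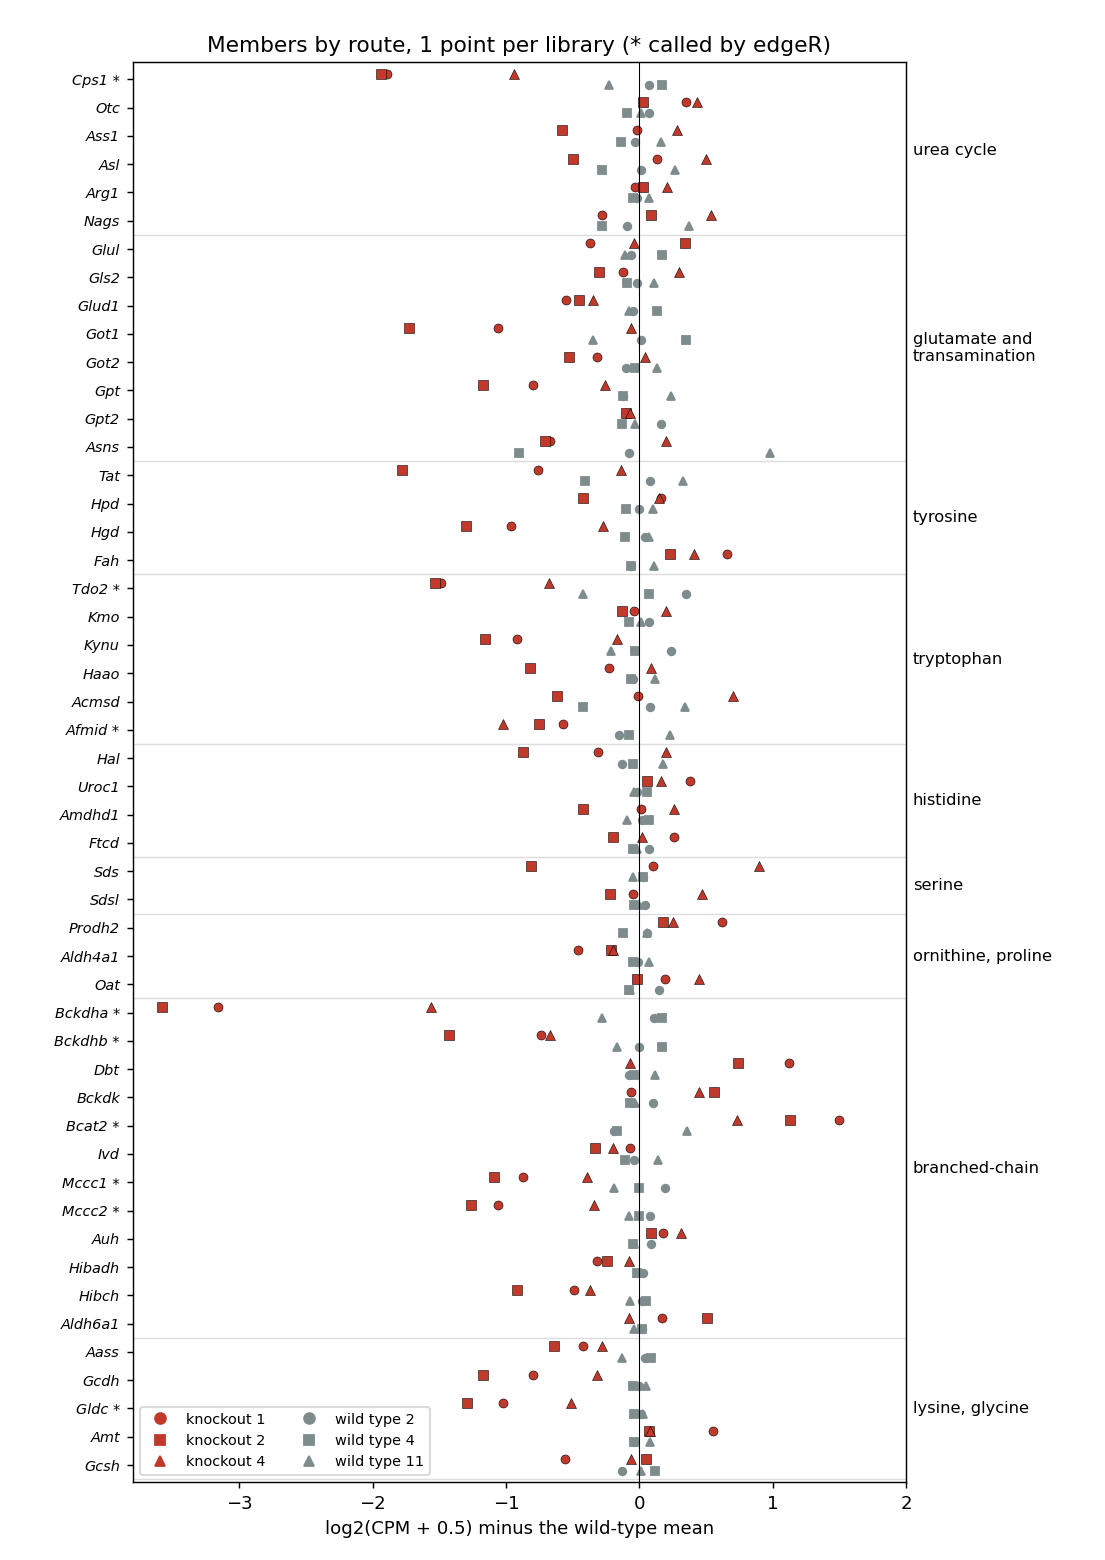
The plot of all tested members by library gives, for each of 50 genes, log2(CPM + 0.5) minus the wild-type mean, with red points for knockout 1 (circle), 2 (square) and 4 (triangle) and grey points for wild type 2 (circle), 4 (square) and 11 (triangle). Asterisks mark the 9 called members, of which 8 lie to the left in knockout and Bcat2 to the right, and in 7 of the 8 the triangle of knockout 4 is the red point nearest to the grey ones.

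The 3 knockout libraries did not move equally. The median difference from the wild-type mean over the members, on the log2(CPM + 0.5) scale, was −0.25, −0.44 and −0.01 in knockout 1, 2 and 4, against 0.01, −0.05 and 0.01 in wild type 2, 4 and 11. In 7 of the 8 members that fell, knockout 4 was the knockout library nearest to wild type and knockout 2 the farthest. Afmid was the exception, lowest in knockout 4. Over all 1103 genes that fell, knockout 4 was nearest in 843 (76.4%), but knockout 1 was the farthest in 717 and knockout 2 in 309. The 8 falls and 1 rise became 3 and 1 without knockout 1, 2 and 1 without knockout 2, 17 and 2 without knockout 4, 2 and 0 without wild type 2, 2 and 0 without wild type 4, and 6 and 1 without wild type 11. The whole table moved likewise. Of all tested genes 1103 fell in the main fit, 407 without knockout 1, 415 without knockout 2 and 2161 without knockout 4. Without wild type 2, 4 and 11 these falls numbered 436, 330 and 873. With knockout 4 alone against the 3 wild-type libraries, or with the mitochondrial share added to the model, 0 members were called. That share in the model left 0 of all 13304 tested genes called. Cps1 and Bckdha were the members called whichever of the 6 libraries was left out, with largest adjusted p-values of 0.0422 and 0.0366.

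Of the 6 genes of the urea route, Cps1 fell (16.7%, against 8.29% of all tested genes) and the other 5 did not pass the test. Cps1 encodes carbamoyl phosphate synthetase 1, the mitochondrial enzyme that commits ammonia to urea. In mm10, the build of all gene positions here, Cps1 spans 67123026 to 67231259 of chromosome 1 (plus strand). Cps1 was at 781, 758 and 1510 CPM in knockout 1, 2 and 4, against 3036, 3263 and 2466 CPM in wild type 2, 4 and 11. Every knockout library lay below every wild-type library, and knockout 4 stood apart from the other knockouts. The means were 1016 ± 427 CPM in knockout and 2922 ± 411 CPM in wild type (SD, n = 3 each), so that the knockout mean was 34.8% of the wild-type mean (log2 fold change −1.52 ± 0.29 SE, edgeR adjusted p = 0.0102). The value was −0.95 with knockout 4 alone (adjusted p = 0.106) and −0.83 with the mitochondrial share in the model.

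The remaining enzymes of the cycle had overlapping groups. Nags makes N-acetylglutamate, the compound that CPS1 needs for its activity, and averaged 59.7 ± 17.0 CPM in knockout and 54.5 ± 13.1 CPM in wild type (0.13 ± 0.24). Otc, the mitochondrial ornithine transcarbamylase, was at 632, 506 and 668 CPM in knockout and 521, 466 and 499 CPM in wild type (0.28 ± 0.19, adjusted p = 0.311). Ass1, argininosuccinate synthase, averaged 2379 ± 684 CPM in knockout and 2496 ± 266 CPM in wild type (−0.07 ± 0.24). Other annotated genes hold 38.6% of the 50-base words of Ass1, which makes its level uncertain. Asl, the lyase that yields arginine, had a log2 fold change of 0.08 ± 0.26, and Arg1, the arginase that releases urea, one of 0.07 ± 0.19. A difference that misses the threshold does not show equal levels.

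**Figure D2:**
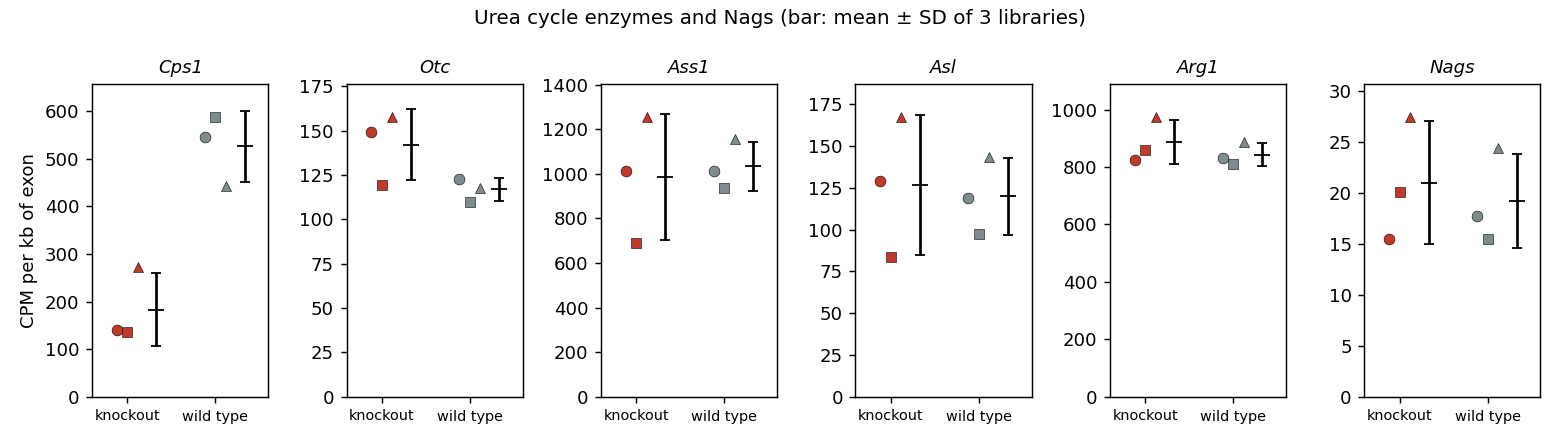
The plot of the urea cycle genes shows CPM per kb of exon in each library, knockout (red) left of wild type (grey), with circle, square and triangle for knockout 1, 2 and 4 and for wild type 2, 4 and 11, and the bar as mean ± SD of 3 libraries. Cps1 has its 3 knockout points below its 3 wild-type points, while the groups of Otc, Ass1, Asl, Arg1 and Nags overlap.

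Because each of these genes is read from the same library, their ratios do not depend on scaling between libraries. The pairs were picked after the levels had been seen and are given as a description, without a test. Per base of exon, Cps1 had 0.944, 1.14 and 1.73 times the counts of Otc in knockout 1, 2 and 4, against 4.45, 5.35 and 3.77 times in wild type 2, 4 and 11. Relative to Arg1 the ratio was 0.170, 0.159 and 0.279 in knockout, against 0.658, 0.724 and 0.50 in wild type. The mean log2 ratio, knockout minus wild type, thus differed by −1.86 for Cps1 against Otc, −1.66 against Arg1 and −1.48 against Ass1, and in none of these 3 ratios did the groups overlap. In level per kb of exon, Cps1 stood at 183 CPM per kb in knockout, near Otc at 142 and well under Arg1 at 886 and Ass1 at 986. In wild type it stood at 526 CPM per kb, against 117 for Otc, 843 for Arg1 and 1034 for Ass1. Exon length here is the union of all annotated exons, 5555 bases for Cps1, 4241 for Otc, 2228 for Arg1 and 2414 for Ass1. The longest transcripts have 5555, 2997, 1477 and 1696 bases. Ratios and ranks between genes, here and below, therefore depend on the length chosen. The differences in log2 ratio between knockout and wild type do not.

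The 8 genes of glutamate, glutamine and transamination had 0 members called, with log2 fold changes from −0.86 to 0.00. Gpt, the cytosolic alanine transaminase, was at 180, 140 and 262 CPM in knockout and 289, 290 and 372 CPM in wild type. The groups did not overlap, but the difference missed the threshold (−0.71 ± 0.24, adjusted p = 0.0674). Its mitochondrial paralogue Gpt2 averaged 351 ± 4.0 CPM in knockout and 375 ± 39.1 CPM in wild type (−0.10 ± 0.17).

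Glud1, which releases ammonia from glutamate, was at 666, 713 and 763 CPM in knockout, against 941, 1068 and 920 CPM in wild type. Its groups were also apart without passing (−0.45 ± 0.18, adjusted p = 0.106). Got1, the cytosolic aspartate transaminase, was at 78.1, 48.9 and 156 CPM in knockout and 164, 207 and 127 CPM in wild type (−0.82 ± 0.36, adjusted p = 0.141), with knockout 4 inside the wild-type range. Its mitochondrial counterpart Got2 averaged 420 ± 85.6 CPM in knockout and 501 ± 41.4 CPM in wild type.

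Glul, the glutamine synthetase of cells next to the central vein, averaged 841 ± 207 CPM in knockout and 840 ± 86.7 CPM in wild type (0.00 ± 0.22). Gls2, the liver glutaminase of periportal cells, averaged 375 ± 82.7 CPM in knockout and 381 ± 26.0 CPM in wild type. Asns, the asparagine synthetase, was barely expressed, at 0.376 to 1.14 CPM in knockout and 0.267 to 2.32 CPM in wild type.

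In the tyrosine route 0 of 4 genes were called, and its steps differed in sign. Tat, which opens tyrosine breakdown and is known as a glucocorticoid-induced gene, was at 1074, 529 and 1643 CPM in knockout and 1924, 1363 and 2282 CPM in wild type (−0.78 ± 0.36, adjusted p = 0.155). Knockout 4 lay within the wild-type range. Hpd, the next enzyme, averaged 1913 ± 408 CPM in knockout and 1930 ± 134 CPM in wild type (−0.01 ± 0.22).

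Hgd, which opens the aromatic ring of homogentisate, was at 259, 204 and 418 CPM in knockout and 517, 467 and 527 CPM in wild type. Its groups did not overlap and the difference missed the threshold narrowly (−0.78 ± 0.25, adjusted p = 0.0585). Fah, the last enzyme, was at 866, 642 and 731 CPM in knockout and 528, 527 and 593 CPM in wild type (0.44 ± 0.19, adjusted p = 0.127). Its knockout levels all lay above its wild-type levels.

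In the tryptophan route, which leads through kynurenine towards NAD, 2 of 6 genes fell (33.3%, against 8.29% of all tested genes). Tdo2, the hepatic dioxygenase that starts the route, spans 81957090 to 81976202 of chromosome 3 (minus strand). It was at 448, 434 and 784 CPM in knockout 1, 2 and 4, against 1596, 1316 and 939 CPM in wild type 2, 4 and 11. The groups did not overlap, and the nearest pair were knockout 4 and wild type 11. The means were 555 ± 198 CPM in knockout and 1283 ± 330 CPM in wild type (−1.21 ± 0.28, adjusted p = 0.0196). The call was lost without knockout 1, knockout 2, wild type 2 or wild type 4, with a largest adjusted p of 0.0793.

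Afmid, the formamidase that makes kynurenine from the product of TDO2, spans 117825924 to 117839908 of chromosome 11 (plus strand). It was at 18.9, 16.6 and 13.8 CPM in knockout 1, 2 and 4 and 25.6, 26.8 and 33.4 CPM in wild type 2, 4 and 11. Here the knockout libraries stood close together, with knockout 4 lowest (−0.80 ± 0.19, adjusted p = 0.0211). The value of Afmid was −1.18, without a call, once the mitochondrial share entered the model. Its level is uncertain: 40.3% of the 50-base words of Afmid occur elsewhere, and 44.2% of its exon bases overlap a gene model on the same strand, Gm20708, which had 0 counts in every library. The Afmid call was lost without knockout 2, wild type 2, wild type 4 or wild type 11, with a largest adjusted p of 0.0615.

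The later tryptophan genes were not called. Kmo, the hydroxylase of kynurenine on the outer mitochondrial membrane, averaged 278 ± 33.6 CPM in knockout and 275 ± 13.7 CPM in wild type. Relative to Kmo, per base of exon, Tdo2 had 2.04, 2.10 and 3.02 times the counts in knockout 1, 2 and 4 and 6.76, 6.16 and 4.14 times in wild type 2, 4 and 11. Kynu, the kynureninase, was at 74.3, 62.4 and 124 CPM in knockout and 166, 137 and 122 CPM in wild type (−0.70 ± 0.26, adjusted p = 0.0839). Haao, which makes the precursor of quinolinate, had a log2 fold change of −0.28 ± 0.24, and Acmsd, which diverts that precursor from NAD synthesis, one of 0.09 ± 0.32.

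In the histidine route 0 of 4 genes were called, and the log2 fold changes ran from −0.27 to 0.21. Hal, the histidase, averaged 289 ± 105 CPM in knockout and 348 ± 39.4 CPM in wild type. Uroc1, the urocanase of the next step, was at 472, 379 and 407 CPM in knockout and 357, 379 and 354 CPM in wild type. The knockout libraries lay above the wild-type ones, but knockout 2 and wild type 4 were equal to 3 digits (0.21 ± 0.17, adjusted p = 0.436). Amdhd1 (−0.03 ± 0.20) and Ftcd (0.04 ± 0.18), which pass the histidine skeleton on to glutamate and folate, had overlapping groups.

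The serine dehydratase Sds was at 134, 71.0 and 233 CPM in knockout and 127, 127 and 120 CPM in wild type. Its knockout levels were spread, with knockout 1 near wild type, knockout 2 below and knockout 4 above (0.23 ± 0.34). Its neighbour on chromosome 5, Sdsl, averaged 16.2 ± 4.35 CPM in knockout and 15.1 ± 0.407 CPM in wild type. The gene Plbd2 lies on the opposite strand across 21.3% of the exon bases of Sds. Plbd2 was at 115, 134 and 87.7 CPM in knockout and 83.4, 90.2 and 93.3 CPM in wild type. Without strand information reads of Sds and Plbd2 cannot be told apart there, so the level of Sds is uncertain.

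In the ornithine and proline route 0 of 3 tested genes were called. Oat, ornithine aminotransferase, averaged 652 ± 107 CPM in knockout and 563 ± 51.3 CPM in wild type (0.21 ± 0.19). Prodh2, which acts on hydroxyproline, was at 268, 198 and 208 CPM in knockout and 182, 160 and 181 CPM in wild type (0.36 ± 0.18, adjusted p = 0.192). Aldh4a1, the dehydrogenase that turns pyrroline carboxylate, formed from proline and from ornithine, into glutamate, was at 163, 194 and 196 CPM in knockout and 223, 217 and 236 CPM in wild type (−0.29 ± 0.17, adjusted p = 0.259). The groups of Prodh2 and of Aldh4a1 did not overlap, in opposite directions. Aldh4a1 shares 30% of its words with other gene models. Prodh, proline dehydrogenase, had 0 counts in all 6 libraries, where a count of 0 allows a level of up to 0.139 to 0.199 CPM depending on the library (3 counts, counting error only).

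The branched-chain route held the most changes, with 4 falls (33.3%) and 1 rise (8.33%) among 12 genes. Over all tested genes 8.29% fell and 8.76% rose. Leucine, isoleucine and valine are first transaminated by BCAT2, and their ketoacids are then decarboxylated by a complex of E1 alpha (Bckdha), E1 beta (Bckdhb), E2 (Dbt) and E3 (Dld) subunits, which the kinase BCKDK turns off. Bckdha spans 25629946 to 25658981 of chromosome 7 (minus strand). It was at 5.83, 4.24 and 18.7 CPM in knockout 1, 2 and 4, against 60.4, 63.2 and 46.1 CPM in wild type 2, 4 and 11. All knockout libraries were far below all wild-type libraries, and knockout 4 was the highest of them.

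The means of Bckdha were 9.59 ± 7.94 CPM in knockout and 56.6 ± 9.18 CPM in wild type, so that the knockout mean was 17% of the wild-type mean (−2.56 ± 0.46, adjusted p = 0.00831). It was the largest change among the members. With knockout 4 alone its value was −1.60 (adjusted p = 0.0729), and −1.38 with that share in the model. The gene B3gnt8 lies on the opposite strand across 61.7% of the exon bases of Bckdha. B3gnt8 was at 2.12, 2.15 and 1.93 CPM in knockout and 1.04, 0.853 and 1.81 CPM in wild type, and without strand information reads of one gene cannot be told from reads of the other there.

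Bckdhb (chromosome 9, 83925145 to 84124240, plus strand) was at 46.2, 28.5 and 48.7 CPM in knockout and 77.6, 87.4 and 69.1 CPM in wild type. The groups did not overlap, with knockout 2 lowest (−0.92 ± 0.22, adjusted p = 0.0213). Without knockout 1, knockout 2, wild type 2 or wild type 4 the call of Bckdhb was lost (largest adjusted p 0.0831). Dbt, the E2 core, went the other way without passing. It was at 202, 155 and 88.3 CPM in knockout 1, 2 and 4 and 87.5, 90.0 and 101 CPM in wild type 2, 4 and 11 (0.68 ± 0.27, adjusted p = 0.102). Knockout 1 and 2 lay above all wild-type libraries and knockout 4 among them. Bckdk, the kinase of the complex, averaged 8.73 ± 1.98 CPM in knockout and 6.80 ± 0.452 CPM in wild type (0.36 ± 0.23, adjusted p = 0.291).

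Within each library the transcripts of the E1 subunits therefore stood in another proportion to that of the E2 core. Per base of exon, Bckdha had 0.0509, 0.0482 and 0.374 times the counts of Dbt in knockout 1, 2 and 4, against 1.22, 1.24 and 0.806 times in wild type 2, 4 and 11. For Bckdhb the ratio to Dbt was 0.424, 0.341 and 1.02 in knockout and 1.64, 1.80 and 1.27 in wild type. The transcripts of the 2 E1 subunits also differed from each other, with a Bckdha to Bckdhb ratio of 0.120, 0.142 and 0.365 in knockout and 0.740, 0.688 and 0.635 in wild type. In none of these 3 ratios did the groups overlap, and knockout 4 lay nearest to wild type in each. These pairs too were picked after the levels had been seen, so the ratios restate those levels and are not a test.

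Bcat2 (chromosome 7, 45570153 to 45589711, plus strand) was the only member that rose. It was at 41.8, 32.3 and 24.4 CPM in knockout and 12.6, 12.9 and 18.7 CPM in wild type (1.15 ± 0.24, adjusted p = 0.0129). The groups did not overlap, and knockout 4 and wild type 11 were closest. The call was lost without wild type 2 or wild type 4, with a largest adjusted p of 0.0604. A gene model on the opposite strand, 0610005C13Rik, covers 15.9% of the exon bases of Bcat2. 0610005C13Rik stood at 203, 179 and 191 CPM in knockout and 124, 133 and 123 CPM in wild type and rose as well (0.59 ± 0.16, adjusted p = 0.0333). Reads of the 2 genes cannot be told apart in the shared bases without strand information, so the rise of Bcat2 is uncertain.

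**Figure D3:**
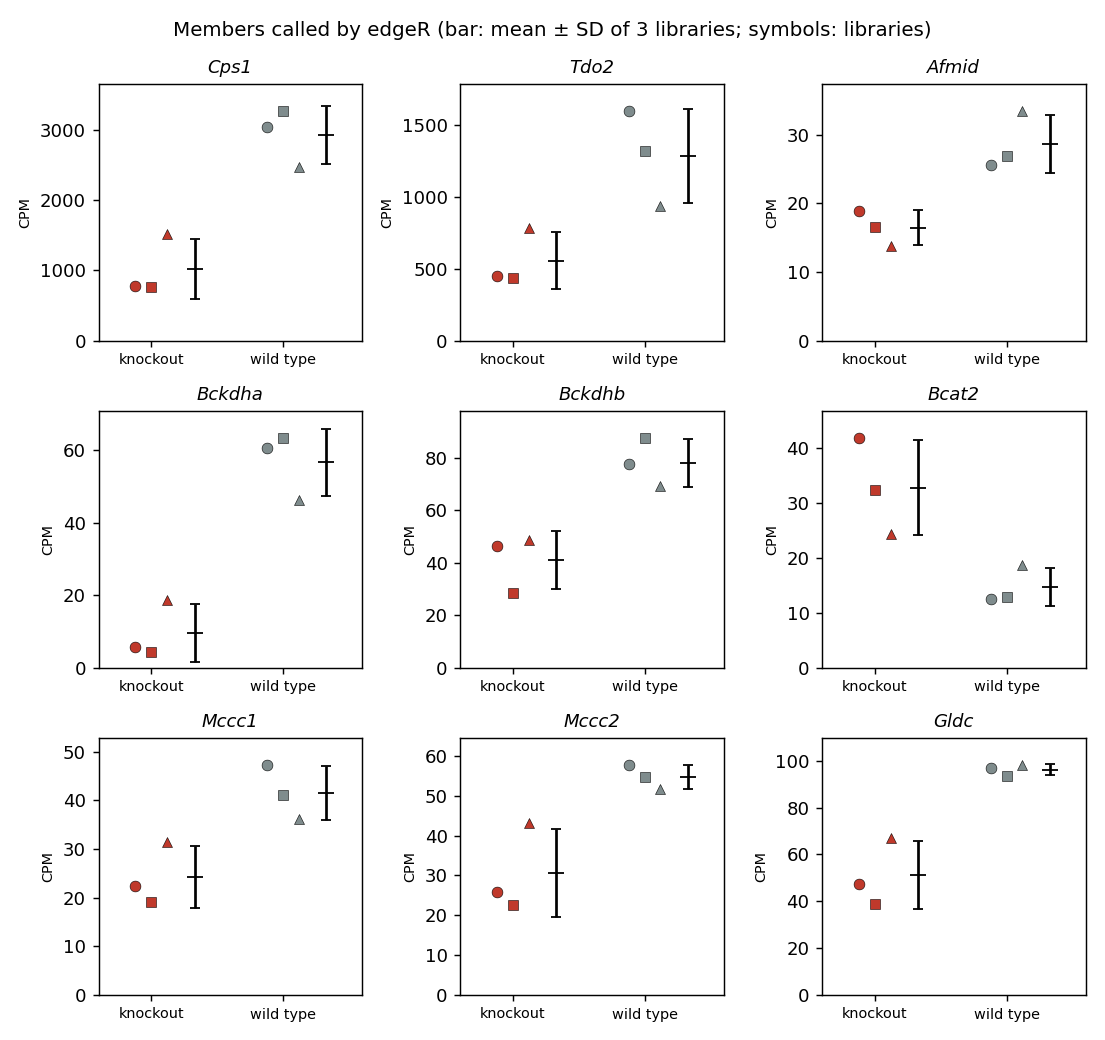
The plot of the 9 called members gives CPM in each library, knockout (red) left of wild type (grey), with circle, square and triangle for knockout 1, 2 and 4 and for wild type 2, 4 and 11, and the bar as mean ± SD of 3 libraries. The groups do not overlap in any panel, and Bcat2 alone is higher in knockout.

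Leucine breakdown continues through isovaleryl-CoA dehydrogenase (Ivd) to methylcrotonyl-CoA carboxylase, which is built from the subunits encoded by Mccc1 and Mccc2. Mccc1 (chromosome 3, 35959312 to 36000678, minus strand) was at 22.4, 19.1 and 31.4 CPM in knockout and 47.2, 41.2 and 36.1 CPM in wild type (−0.77 ± 0.21, adjusted p = 0.0344). Mccc2 (chromosome 13, 99948530 to 100015639, minus strand) was at 25.9, 22.6 and 43.2 CPM in knockout and 57.6, 54.8 and 51.7 CPM in wild type (−0.84 ± 0.24, adjusted p = 0.0373). In both genes knockout 4 lay just under the lowest wild-type library.

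The pair moved together in every library. The ratio of Mccc1 to Mccc2 per base of exon was 0.221, 0.216 and 0.186 in knockout and 0.210, 0.192 and 0.179 in wild type, and the groups overlapped. Ivd, the step before them, averaged 168 ± 15.3 CPM in knockout and 194 ± 17.6 CPM in wild type (−0.20 ± 0.17, adjusted p = 0.433). Without 1 library the call of Mccc1 held in 2 of 6 fits and that of Mccc2 in 1 of 6, with largest adjusted p-values of 0.130 and 0.127. With length and GC trends removed Mccc1 did not pass.

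The valine branch and the other members of the route were not called. Hibch, the hydrolase of hydroxyisobutyryl-CoA, was at 47.9, 35.5 and 51.9 CPM in knockout and 68.4, 69.9 and 64.0 CPM in wild type, with groups apart and an adjusted p of 0.0544 (−0.58 ± 0.19). Hibadh, the next dehydrogenase, was at 283, 300 and 335 CPM in knockout and 360, 349 and 349 CPM in wild type (−0.21 ± 0.17), also without overlap. Aldh6a1, the last enzyme of valine breakdown, averaged 397 ± 83.0 CPM in knockout and 341 ± 8.75 CPM in wild type (0.22 ± 0.20). Auh, the hydratase after methylcrotonyl-CoA carboxylase, averaged 54.5 ± 4.17 CPM in knockout and 47.5 ± 2.63 CPM in wild type, with the groups apart (0.20 ± 0.16, adjusted p = 0.417).

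The sequences upstream of the start are shown for the 6 called genes whose RefSeq start lies at or before the annotated gene start, so that genes that fell can be read beside Bcat2, which rose. Cps1 had no window, and the starts of Bckdha and Tdo2 lie 220 and 474 bases inside the annotated gene, so these are not printed. RefSeq promoter windows (GRCm38.p6, the same chromosome sequences as mm10) were found for 42 of the 51 members, and the 250 bases before the start are printed 5′ to 3′ on the gene's strand. Where a gene has more than 1 window, as Bckdhb and Bcat2 with 2 each, the one nearest to the annotated start was searched. Capitals mark matches on either strand to CCAAT (the CCAAT box) and GGGCGG (the GC box). The motif TTGCNNAA, a form of the C/EBP site, had no match in these 6 windows.
Mccc1, chr3:36000679-36000928, minus strand: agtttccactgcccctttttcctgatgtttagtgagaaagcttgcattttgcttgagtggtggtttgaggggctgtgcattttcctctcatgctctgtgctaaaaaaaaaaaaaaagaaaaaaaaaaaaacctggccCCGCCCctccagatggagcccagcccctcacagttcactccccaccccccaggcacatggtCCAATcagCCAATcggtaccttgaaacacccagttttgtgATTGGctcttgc
Mccc2, chr13:100015640-100015889, minus strand: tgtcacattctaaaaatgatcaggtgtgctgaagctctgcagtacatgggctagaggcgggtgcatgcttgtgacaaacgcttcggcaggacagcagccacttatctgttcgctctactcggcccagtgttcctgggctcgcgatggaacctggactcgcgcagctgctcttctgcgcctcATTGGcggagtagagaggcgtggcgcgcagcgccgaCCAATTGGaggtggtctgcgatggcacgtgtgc
Bckdhb, chr9:83924887-83925136, plus strand: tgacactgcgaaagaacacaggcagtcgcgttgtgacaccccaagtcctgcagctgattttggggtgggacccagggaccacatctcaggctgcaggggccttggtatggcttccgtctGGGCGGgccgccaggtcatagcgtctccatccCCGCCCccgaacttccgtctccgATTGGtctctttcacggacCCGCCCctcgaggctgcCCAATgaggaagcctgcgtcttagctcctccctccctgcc
Gldc, chr19:30175442-30175691, minus strand: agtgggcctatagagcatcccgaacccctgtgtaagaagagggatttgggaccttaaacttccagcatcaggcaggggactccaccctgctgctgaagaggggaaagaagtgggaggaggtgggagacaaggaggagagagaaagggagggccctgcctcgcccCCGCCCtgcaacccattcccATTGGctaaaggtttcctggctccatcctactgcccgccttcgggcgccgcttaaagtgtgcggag
Afmid, chr11:117825669-117825918, plus strand: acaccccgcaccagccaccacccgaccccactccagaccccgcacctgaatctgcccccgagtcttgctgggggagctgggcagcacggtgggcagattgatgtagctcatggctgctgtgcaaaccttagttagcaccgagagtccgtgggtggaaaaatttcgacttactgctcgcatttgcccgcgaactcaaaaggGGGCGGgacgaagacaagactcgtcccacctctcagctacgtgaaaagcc
Bcat2, chr7:45569903-45570152, plus strand: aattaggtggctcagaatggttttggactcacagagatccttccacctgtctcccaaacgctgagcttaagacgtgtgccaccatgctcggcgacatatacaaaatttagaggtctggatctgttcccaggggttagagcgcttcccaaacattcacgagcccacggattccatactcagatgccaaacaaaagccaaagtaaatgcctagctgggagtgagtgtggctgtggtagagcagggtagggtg
The windows of Mccc1 and Mccc2 held 3 CCAAT matches each, of which a pair overlaps in Mccc2, and those of Bckdhb and Gldc held 2 and 1. The Afmid window held 1 GGGCGG and no CCAAT. Neither the printed Bcat2 window nor the unprinted Bckdha window, the gene with the largest fall, held a match to any of the 3 motifs. Of the 42 member windows 22 (52.4%) held CCAAT, 19 (45.2%) held GGGCGG and 5 (11.9%) held TTGCNNAA, against 33.8%, 32.7% and 9.56% of all 32851 windows of that length. Members gave 1 window each, while the whole counted every window of a gene and was not limited to tested genes. The shares are therefore of unlike sets. A match describes letters only and says nothing of what binds there.

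Of the 5 lysine and glycine genes 1 fell, and 3 had groups that did not overlap. Gldc encodes the decarboxylase of the mitochondrial glycine cleavage system and spans 30098447 to 30175429 of chromosome 19 (minus strand). It was at 47.2, 39.0 and 67.2 CPM in knockout and 96.8, 93.5 and 98.0 CPM in wild type (−0.91 ± 0.21, adjusted p = 0.0193). The wild-type libraries were close together, and every knockout library lay below them. Without 1 library its call held in 2 of 6 fits, with a largest adjusted p of 0.0699.

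The other parts of the glycine cleavage system were not called. Amt, the aminomethyltransferase, averaged 30.6 ± 6.32 CPM in knockout and 25.7 ± 1.29 CPM in wild type (0.25 ± 0.19), and Gcsh, the lipoyl carrier protein, 71.9 ± 15.3 CPM in knockout and 80.9 ± 6.95 CPM in wild type (−0.17 ± 0.20). The ratio of Gldc to Amt per base of exon was 0.498, 0.581 and 0.993 in knockout and 1.55, 1.5 and 1.44 in wild type, without overlap.

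Lysine breakdown starts at Aass, which was at 201, 172 and 221 CPM in knockout and 277, 286 and 245 CPM in wild type (−0.44 ± 0.18, adjusted p = 0.109). Gcdh, the glutaryl-CoA dehydrogenase on which lysine and tryptophan meet, was at 310, 239 and 432 CPM in knockout and 539, 520 and 555 CPM in wild type. Its groups were apart and it missed the threshold by little (−0.72 ± 0.23, adjusted p = 0.0522). Gcdh passed with mitochondrial genes left out of the scaling, with no low-count filter, with library totals, with length and GC trends removed, with DESeq2, with limma-voom and without knockout 4.

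**Figure D4:**
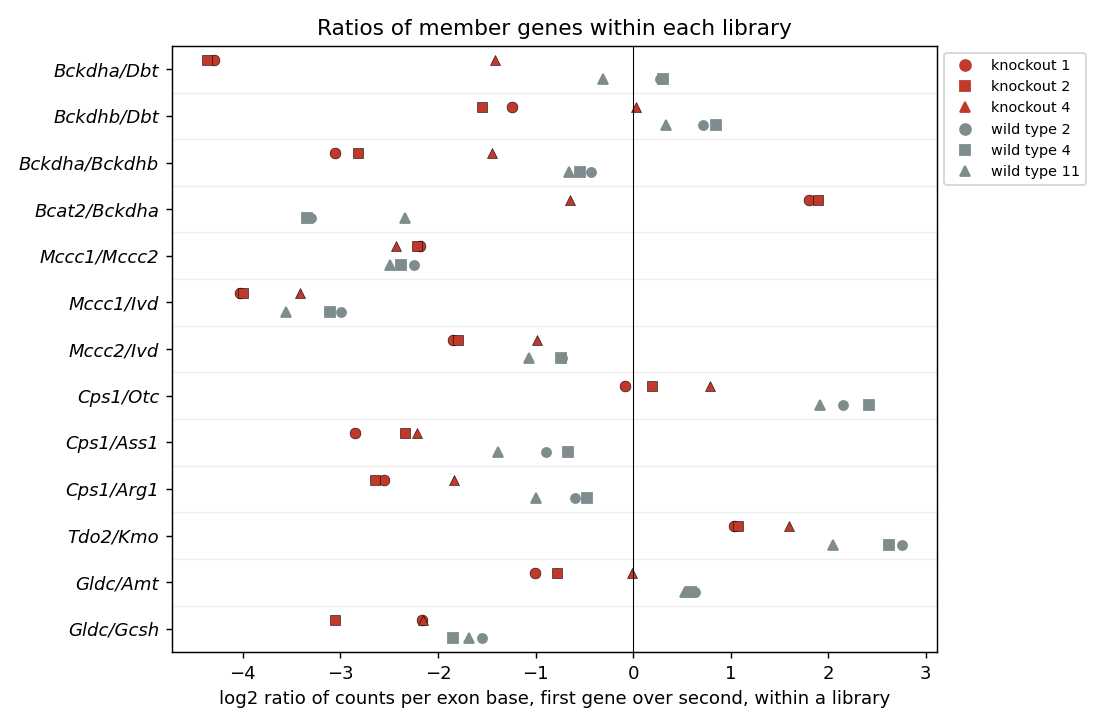
The plot of ratios within libraries shows, for 13 pairs of members, the log2 ratio of counts per exon base of the first gene to the second, with red points for knockout 1 (circle), 2 (square) and 4 (triangle) and grey points for wild type 2 (circle), 4 (square) and 11 (triangle). The Bckdha to Dbt ratio averages −3.36 in knockout and 0.09 in wild type, while the Mccc1 to Mccc2 ratio averages −2.27 in knockout and −2.37 in wild type.

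By compartment, 6 of 28 tested members that act in mitochondria fell (21.4%) and 1 rose (3.57%). Of 22 cytosolic members 2 fell (9.09%) and 0 rose. Over all tested genes 8.29% fell and 8.76% rose, so the cytosolic share of falls was near that of all genes. The median log2 fold changes were −0.19 for mitochondrial and −0.05 for cytosolic members. The 6 were Cps1, Bckdha, Bckdhb, Mccc1, Mccc2 and Gldc. No test of the difference between compartments was made.

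Enzymes next to these routes were read from a list of 35 tested genes, of which 10 fell and 1 rose (median −0.24). Pccb, the beta subunit of propionyl-CoA carboxylase, was at 62.2, 81.5 and 124 CPM in knockout and 234, 256 and 190 CPM in wild type (−1.34 ± 0.26, adjusted p = 0.0102). The knockout levels of Pccb lay wholly below its wild-type levels.

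Dld, the E3 subunit that the ketoacid dehydrogenase shares with other complexes, averaged 62.7 ± 18.5 CPM in knockout and 125 ± 7.87 CPM in wild type (−1.0 ± 0.22, adjusted p = 0.0151). Shmt1, a serine hydroxymethyltransferase, fell (−0.98 ± 0.22), as did Grhpr, which reduces glyoxylate (−1.02 ± 0.24). Further called genes of this list, named after their values were seen, were Pcca, the alpha subunit of propionyl-CoA carboxylase, Mut, the methylmalonyl-CoA mutase, Echs1, Acat1 and Gch1, which fell, and Mcee, the methylmalonyl-CoA epimerase, which rose (0.82 ± 0.19). The counts became 2 falls and 0 rises without knockout 1, 2 and 1 without knockout 2, and 17 and 3 without knockout 4. They were 3 and 0 without wild type 2, 2 and 0 without wild type 4, and 7 and 1 without wild type 11. With the mitochondrial share in the model 0 were called, and with knockout 4 alone the median of the list was −0.18. Over all tested genes 8.29% fell.

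Of 21 tested amino acid and urea cycle transporters 4 fell (19.0%) and 0 rose (median −0.17). Over all tested genes 8.29% fell and 8.76% rose. Slc3a1, a subunit of the cystine and dibasic amino acid transporter, was at 2.38, 2.58 and 7.10 CPM in knockout and 15.8, 20.2 and 15.9 CPM in wild type (−2.10 ± 0.37, adjusted p = 0.00831). The mitochondrial aspartate and glutamate carriers Slc25a13 (−0.63 ± 0.19), which supplies aspartate to the urea cycle, and Slc25a12 (−0.98 ± 0.22) fell. Slc25a44, a mitochondrial carrier of branched-chain amino acids, averaged 47.2 ± 6.92 CPM in knockout and 76.6 ± 4.29 CPM in wild type (−0.70 ± 0.17, adjusted p = 0.0239). Slc25a15, the ornithine carrier of the cycle, did not pass (−0.48, adjusted p = 0.0728, named after its value was seen). Without knockout 1, knockout 2, wild type 2 or wild type 4, 1 transporter fell in each case. Without knockout 4 5 fell, and without wild type 11 2 fell. With the mitochondrial share in the model 0 did, and with knockout 4 alone the transporters' median was −0.30.

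Of 18 tested regulators 3 fell (16.7%) and 1 rose (5.56%), against 8.29% and 8.76% of all tested genes (regulator median 0.04). Ppara, a receptor of the fasting response, was at 24.4, 20.9 and 25.1 CPM in knockout and 88.5, 75.1 and 45.0 CPM in wild type (−1.57 ± 0.24, adjusted p = 0.00578). The knockout libraries stood close together, and all lay below the lowest wild-type library, wild type 11. Chac1, a target of the amino acid response, fell (−1.42 ± 0.37), and Cebpb, a C/EBP factor, rose to 193 ± 48.6 CPM in knockout, against 115 ± 17.1 CPM in wild type (0.74 ± 0.22). Atf4, the main transcription factor of the amino acid response, was at 162, 144 and 123 CPM in knockout and 77.7, 113 and 110 CPM in wild type, and Trib3, another of its targets, at 14.7, 8.75 and 10.7 CPM in knockout and 8.79, 4.64 and 4.46 CPM in wild type. Neither passed (0.51 ± 0.20, adjusted p = 0.103 for Atf4 and 0.93 ± 0.31, adjusted p = 0.0602 for Trib3), and both values have the opposite sign to that of Chac1. Cebpa, Hnf4a and Nr3c1, the glucocorticoid receptor, had log2 fold changes of 0.25, 0.03 and −0.12 and did not pass. Without 1 library, 1 to 3 regulators fell and 0 to 3 rose, and with knockout 4 alone or the mitochondrial share in the model 0 were called.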

How the data were processed

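Liver RNA from 6 mice was sequenced. Per the labels' protocols, extraction used an RNeasy kit and library construction a SMARTer mRNA kit. The authors deposited raw counts per gene, 1 column per mouse. Per the submitters' processing notes mm10 was used. Aligner, counter, annotation, strandedness and treatment of shared reads: not given in the sources used here. GENCODE M21 supplied positions, exon lengths and overlaps (54079 of 54232 identifiers matched).

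Counts were tested in R 4.3.3 with edgeR 4.0.16 (quasi-likelihood F test, TMM scaling, filterByExpr, no covariate), fitted over all 13304 tested genes of the 6 libraries. A gene was called at a two-sided Benjamini-Hochberg adjusted p under 0.05, and only called genes are said to have risen or fallen. Log2 fold changes are knockout over wild type, ± SE (log2 fold change over the square root of F). Levels are TMM-scaled CPM, with SD over 3 libraries. DESeq2 1.42.0 and limma-voom (limma 3.58.1) were alternatives, and the test was checked on simulated counts. Libraries of 1 genotype differed by chi-square values of at least 21.0 per degree of freedom, so each counted as a sample. P-values measure the spread between these livers.

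The members and gene lists were chosen with earlier results of these data known. The rule for naming took Rtn4, every called member, members below the count filter, for each route the uncalled member of highest level and those with the smallest p, and up to 5 called genes of each neighbouring list by smallest p. The remaining members, B3gnt8, 0610005C13Rik, Plbd2, Axin2, Tbx3, Cyp2e1, Atf4, Trib3, Cebpa, Hnf4a and Nr3c1 were added after their values were seen, as were the ratios. Some genes of the neighbouring lists are counted but not reported here by name.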

Additional observations from a re-analysis of the deposited data

How the results depend on the processing

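Under the main settings 8 members fell and 1 rose. The fall count was 14 with library totals, 15 with no low-count filter, 13 with DESeq2 and 0 with knockout 4 alone or with the mitochondrial share as covariate. The rise count was 2 with no low-count filter and 0 with knockout 4 alone or the covariate. Genes called over the whole table numbered 2268, against 25 with knockout 4 alone and 0 with the covariate (edgeR, 1146 at an unadjusted p under 0.05, of which 6 members). The mitochondrial shares of knockout and wild type do not overlap, so share and genotype cannot be told apart. Leaving out 1 library gave 630 (wild type 4) to 4046 (knockout 4) called genes, 2 to 17 falls and 0 to 2 rises. The members' median ran from −0.30 to −0.03 over all alternatives. Library totals moved the median of all genes to −0.16, and relative to it the members' median of −0.30 was close to the −0.13 of the main scaling.

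All 9 called members kept their sign in all 17 alternatives. They passed with RLE size factors, library totals, both other filters, both other tests and mitochondrial genes left out, and 8 of 9 passed with length and GC trends removed (Mccc1 did not). With the replicate block, the label number as a factor, 9 members fell and 1 rose and 1686 genes were called. Nothing in the labels pairs the numbers, and the deviations of same-numbered libraries were close to unrelated (r = −0.0597 for number 2 and 0.0670 for number 4). Pairs with different numbers ran from −0.112 to 0.08.

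Signs turned in 21 of the 41 tested members that were not called. With knockout 4 alone these were Ass1 (0.28), Glul (−0.04), Gls2 (0.30), Got2 (0.04), Hpd (0.15), Haao (0.09), Hal (0.20), Amdhd1 (0.26), Dbt (−0.07) and Aldh6a1 (−0.08). With the covariate they were Ass1 (0.15), Gls2 (0.29), Got2 (0.02), Asns (0.21), Hal (0.11), Amdhd1 (0.16), Ftcd (−0.17), Dbt (−0.34), Amt (−0.16) and Gcsh (0.24). Library totals turned Asl (−0.11), Arg1 (−0.10), Nags (−0.03), Glul (−0.15), Kmo (−0.16), Acmsd (−0.10), Ftcd (−0.15) and Sdsl (−0.09). Removal of length and GC trends turned Asl (−0.00), Nags (−0.04), Amdhd1 (0.05), Ftcd (−0.03) and Sdsl (−0.15). With no low-count filter Glul was −0.05, Kmo −0.03 and Ftcd −0.01, and with the replicate block Gls2 was 0.05, Asns 0.38, Ftcd −0.10 and Gcsh 0.00. Glul was −0.00 with RLE size factors and DESeq2 and −0.02 with limma-voom, and Hpd was 0.00 with the filter of 1 CPM in 3 libraries. Leaving out 1 library gave −0.29 to 0.13 for Ass1, −0.18 to 0.31 for Asl, −0.01 to 0.11 for Arg1, −0.12 to 0.33 for Nags, −0.20 to 0.15 for Glul, −0.22 to 0.10 for Gls2, −1.58 to 0.16 for Asns, −0.11 to 0.15 for Hpd, −0.09 to 0.09 for Kmo, −0.34 to 0.37 for Acmsd, −0.21 to 0.14 for Amdhd1, −0.09 to 0.14 for Ftcd, −0.30 to 0.56 for Sds and −0.16 to 0.24 for Sdsl. The cause of these turns was not tested. The differences in the 13 ratios kept their direction whichever 1 library was left out. Asns had 6, 7 and 19 counts in knockout 1, 2 and 4 and 18, 5 and 50 counts in wild type 2, 4 and 11.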
